A study of Mus musculus with 16 samples.

Results

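Chemokines of the CXC and CX3C families were followed at the transcript level in primary cultures of mouse cerebral cortex. The family was given as 10 genes, Cxcl1, Cxcl2, Cxcl5, Cxcl9, Cxcl10, Cxcl11, Cxcl12, Cxcl14, Cxcl16 and Cx3cl1, and its members were the array probes whose RefSeq accession belongs to one of them. Of the 10 genes, 9 had at least 1 probe that could be named in this way, among 21368 named genes with a probe in all. Cxcl11 was not analysed here. Cxcl9 and Cxcl12 had a further probe each, and the brighter probe stood for the gene.

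The astrocyte Klotho group was cultured from cortex of C57BL/6 pups and received 1 nM recombinant secreted Klotho for 24 h, and the astrocyte control group received phosphate-buffered saline for the same time. The neuron Klotho group and the neuron control group came from C57BL/6 cortex of embryonic day 16 and received the same agents after 14 days in vitro. Each group had 4 one-colour arrays. The growth protocol states near-pure astrocytes after shaking, grown in serum, while the astrocyte labels also carry embryonic day 16. Klotho is a transmembrane protein that is also shed into blood and cerebrospinal fluid and is known for its role beside FGF receptors. Whether arrays of one group stem from different cultures is not labelled, and the p-values then cover only spread among these samples, possibly technical.

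Chemokines are small secreted proteins that guide the movement of cells through G-protein-coupled receptors, and the CXC and CX3C names describe the spacing of conserved cysteines. Cxcl1, Cxcl2 and Cxcl5 act on the receptor Cxcr2 and draw neutrophils, Cxcl9, Cxcl10 and Cxcl11 act on Cxcr3 and draw activated T cells, and Cxcl12 acts on Cxcr4 and Ackr3 and guides migrating neural and blood-forming cells. Cxcl16 and Cx3cl1 are made as transmembrane proteins whose chemokine domain can be shed, and in brain Cx3cl1, or fractalkine, is known as a neuronal signal to the receptor Cx3cr1 on microglia. Cytokines and Toll-like receptor ligands are known to induce Cxcl1, Cxcl2 and Cxcl5 in astrocytes through NF-kappaB, and interferons are known to induce Cxcl9 and Cxcl10, while Cxcl14 is often made constitutively.

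Promoters are shown for 5 members because the induced genes are known to be read through elements close to their start. Each sequence is the 250 bases before the annotated start, 5′ to 3′ on the gene's own strand, from the RefSeq promoter table of assembly GRCm38.p6, which held 7 of the 10 members. Capitals mark matches to a kappaB motif spelled GGGANNTTCC or to an interferon-stimulated response element (ISRE) motif spelled GAAANNGAAA, searched on both strands.
Cxcl1, chr5:90890995-90891244, plus strand: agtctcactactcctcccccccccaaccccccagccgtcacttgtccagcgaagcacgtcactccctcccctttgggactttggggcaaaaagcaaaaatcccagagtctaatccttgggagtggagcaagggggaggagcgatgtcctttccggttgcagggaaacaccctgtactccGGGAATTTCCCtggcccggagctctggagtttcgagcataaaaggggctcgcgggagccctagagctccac
Cxcl2, chr5:90903649-90903898, plus strand: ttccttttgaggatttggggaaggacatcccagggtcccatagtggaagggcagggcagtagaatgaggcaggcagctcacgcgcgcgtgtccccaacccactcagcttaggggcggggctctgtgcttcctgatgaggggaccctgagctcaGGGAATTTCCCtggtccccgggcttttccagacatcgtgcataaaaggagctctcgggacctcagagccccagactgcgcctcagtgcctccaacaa
Cxcl10, chr5:92348890-92349139, minus strand: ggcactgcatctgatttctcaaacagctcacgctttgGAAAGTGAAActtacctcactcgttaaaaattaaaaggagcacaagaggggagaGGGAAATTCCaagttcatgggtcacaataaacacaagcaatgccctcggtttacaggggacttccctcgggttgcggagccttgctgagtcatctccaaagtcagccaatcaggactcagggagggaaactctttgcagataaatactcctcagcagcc
Cxcl9, chr5:92328080-92328329, minus strand: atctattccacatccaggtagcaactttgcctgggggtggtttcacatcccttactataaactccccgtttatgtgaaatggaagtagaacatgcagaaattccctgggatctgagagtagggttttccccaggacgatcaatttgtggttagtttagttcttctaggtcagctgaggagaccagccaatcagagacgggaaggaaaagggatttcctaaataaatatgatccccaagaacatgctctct
Cxcl14, chr13:56296552-56296801, minus strand: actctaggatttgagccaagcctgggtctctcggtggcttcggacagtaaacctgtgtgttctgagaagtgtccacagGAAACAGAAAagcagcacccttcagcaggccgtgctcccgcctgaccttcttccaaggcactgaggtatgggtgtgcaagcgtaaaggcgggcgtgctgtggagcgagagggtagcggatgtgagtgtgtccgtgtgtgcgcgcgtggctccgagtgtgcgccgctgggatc

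The kappaB motif was present in 3 of these 7 promoters, against 397 of all 32851 promoters in the table (1.21%). In Cxcl1 the match lay 71 to 62 bases before the start, in Cxcl2 97 to 88 bases before it, and in both genes a second match on the opposite strand overlapped the first, shifted by 1 base. In Cxcl10 the kappaB match lay 159 to 150 bases before the start and an ISRE match lay 213 to 204 bases before it. The ISRE motif was otherwise matched in Cxcl14, at 172 to 163 bases, and it is held by 978 promoters (2.98%). The looser NF-kappaB consensus, which overlaps the kappaB motif, matched the same 3 members and was held by 2382 promoters (7.25%). Neither motif was matched in these windows of Cxcl9, Cxcl12 or Cx3cl1. The matches describe letters and were not measured as binding. Cxcl1, Cxcl2, Cxcl5, Cxcl9, Cxcl10 and Cxcl11 are all placed on chromosome 5, Cxcl12 on 6, Cx3cl1 on 8, Cxcl16 on 11 and Cxcl14 on 13.

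Targets of unnamed probes were tested with the named genes, and both are counted as genes. A level below is the log2 processed intensity of the standing probe minus the 75th percentile of its array, so that 0 is that percentile and a difference of 1 is a 2-fold difference in signal. Levels of different genes come from different probes and are not set against each other. Spots well above background made up 57.5 to 67.3% of each array, and no spot was saturated. The arrays within a group correlated with r from 0.95 to 0.993. The deposit assigns the astrocyte arrays in conflicting ways, because 6 of the 8 astrocyte columns of the deposited value table equal the scanner array of another sample, and 4 of these are of the other treatment. By scanner file the 4 Klotho arrays lay on slide 3 and the 4 control arrays on slide 2. By value table the Klotho group holds replicates 2 and 4 of each of these slides, all in slide column 4, and the control group holds replicates 1 and 3, all in column 3. By scanner file, treatment and slide cannot be told apart, and by value table, treatment and column cannot. All 8 neuron arrays lay on slide 1, with Klotho in row 2 and control in row 1, so treatment and row cannot be told apart there. With all astrocyte arrays on slides 2 and 3, culture and slide cannot be told apart either, in the culture differences and in the interaction. Astrocyte groups are by scanner file unless the value table is named. Klotho replicate 3 of the astrocytes stood apart, with the lowest value of its group for 8 of the 9 members, and results that rest on it are given with and without it. It was singled out by these values, which favours calls made without it.

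Cxcl1, Cxcl2, Cxcl5, Cxcl9, Cxcl10 and Cxcl16 were higher in astrocyte cultures, and Cxcl14, Cx3cl1 and, by its standing probe only, Cxcl12 were lower. All 9 members passed the test (limma, Benjamini-Hochberg over all genes tested, threshold 0.05), 6 higher and 3 lower, in a comparison that called 70.2% of 26109 genes, 29.1% higher and 41.1% lower. Cxcl2 and Cxcl9 entered this test only through the astrocyte Klotho group, which favours a higher value in astrocytes. The median difference over all genes tested was -0.21. The difference between the culture means exceeded the range over the 8 arrays of either culture for Cxcl5, Cxcl10 and Cxcl16. For Cxcl9 it exceeded neither range, and for the other members only the range over the 8 neuron arrays. The share of all genes that do so was not computed. Cxcl10, Cxcl14 and Cx3cl1 were well above background on all 16 arrays, and the other 6 were not on some, so that their differences rest partly on values near the detection limit. With values under the highest detection limit of the 16 arrays raised to it, a setting added after the data were seen, all 9 kept their direction and their call. The values of 8 astrocyte and 8 neuron arrays did not overlap for Cxcl1, Cxcl5, Cxcl10 and Cxcl16, all higher, where 18.6% of genes were, and for Cxcl14, lower, where 24.9% were.

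**Figure D1:**
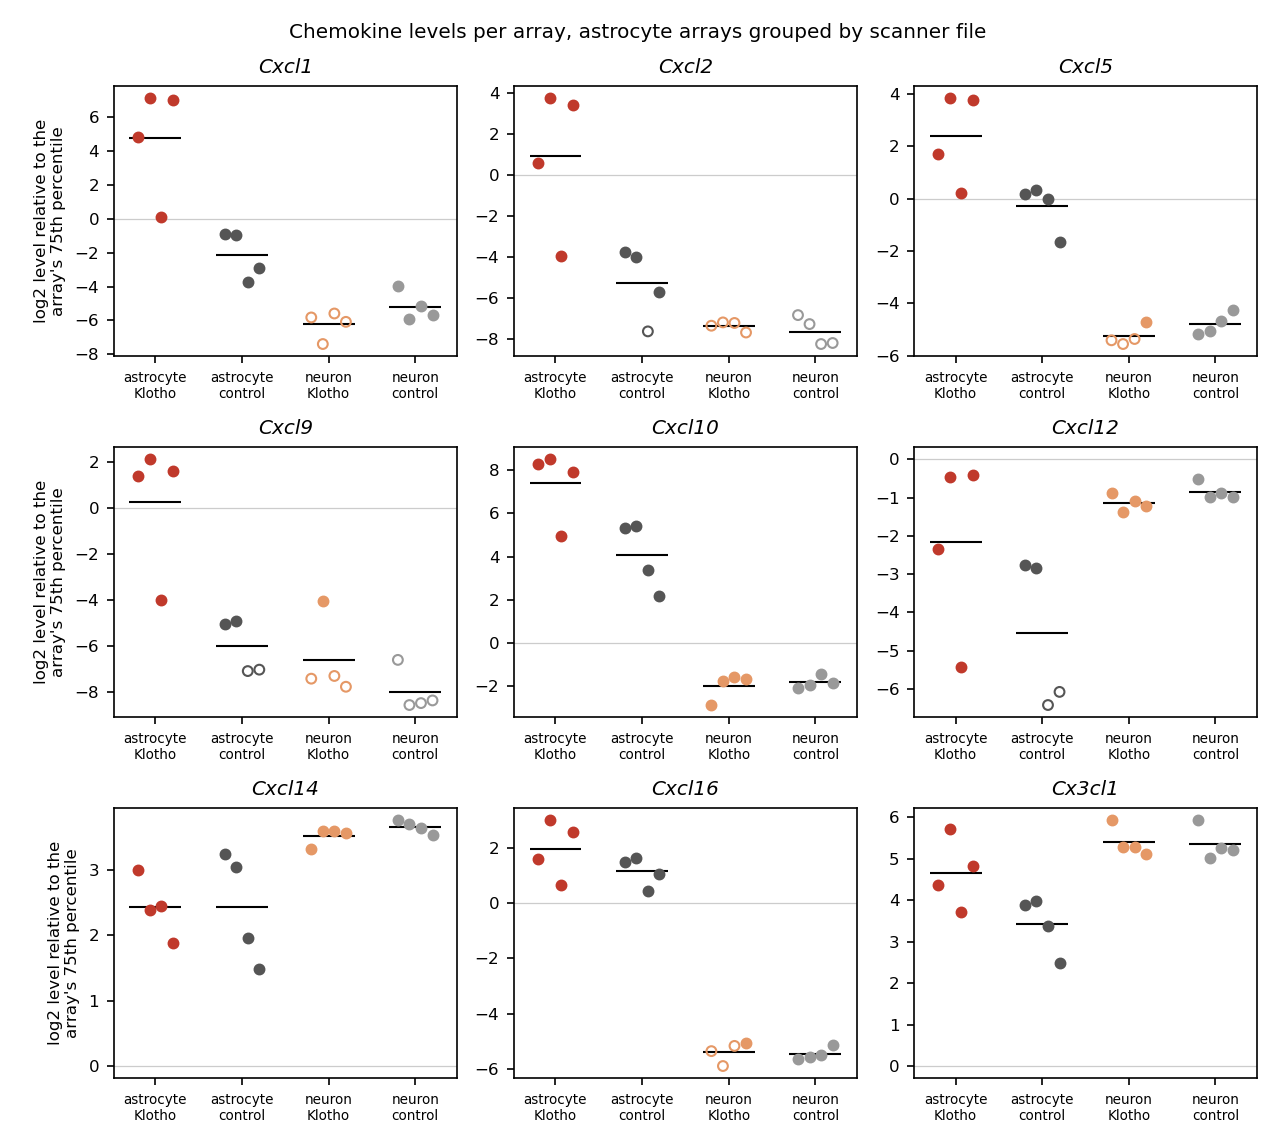
Level of each chemokine on every array, with the vertical axis in log2 relative to the array's 75th percentile and one panel per gene. Points are single arrays, open points are not well above background and bars are group means (n = 4). Astrocyte groups are by scanner file, and astrocyte Klotho replicate 3 is the low red point in 8 of the 9 panels.

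The neutrophil attractants were higher in astrocyte cultures, with their highest levels on the slide 3 arrays, and near or under the detection limit in neurons. Cxcl1 read 4.82, 7.13, 0.10 and 7.03 on astrocyte Klotho replicates 1 to 4, against -0.90, -0.96, -3.74 and -2.87 on the astrocyte controls. On neuron arrays Cxcl1 read -5.83, -7.40, -5.59 and -6.08 with Klotho, none of them well above background, against -3.96, -5.89, -5.17 and -5.68 in controls, all above it. The 4 astrocyte Klotho values of Cxcl1 lay above the 4 astrocyte controls and these above all neuron values, while the neuron groups overlapped. The culture difference of Cxcl1 was 7.03 ± 0.84 (SE, n = 8 per culture, limma adjusted p = 1.84e-06).

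Cxcl2 was not well above background on any of the 8 neuron arrays. It read 0.59, 3.75, -3.95 and 3.42 on the astrocyte Klotho arrays, against -3.76, -4.0, -7.64 and -5.72 in astrocyte controls, of which the third was not above background. Klotho replicate 3 lay among the controls and the other 3 Klotho values lay above them. Cxcl2 was at least 12.2-fold higher in astrocyte cultures than the detection limit of the neuron arrays. This bound was made from each array's lowest signal well above background and was not itself tested. A single probe can lie over that level and still not be well above background. On astrocyte control replicate 4 the standing Cxcl12 probe did so, at -6.08 against -6.31. The bounds for Cxcl2 and Cxcl9 are therefore approximate. The measured means were -2.16 in astrocytes and -7.51 in neurons (limma adjusted p = 7.31e-05), with no neuron value above background. With values raised to the highest detection limit, the difference was 3.33 ± 0.85 (SE, limma adjusted p = 0.00298). Cxcl2 entered these tests only through the astrocyte Klotho group, which favours a higher value in astrocytes. Without astrocyte Klotho replicate 2 the bound for Cxcl2 was at least 6.81-fold, without replicate 4 it was 7.03-fold, and without astrocyte control replicate 3 it was 21.0-fold. The Klotho arrays alone put Cxcl2 at least 75.7-fold higher in astrocytes than in neurons, and the control arrays alone at least 1.98-fold.

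For Cxcl5 the astrocyte Klotho arrays gave 1.70, 3.83, 0.23 and 3.76, against 0.17, 0.34, 0.01 and -1.67 in astrocyte controls. The neuron levels of Cxcl5 were -5.41, -5.55, -5.36 and -4.72 with Klotho and -5.16, -5.04, -4.68 and -4.26 in controls. Without Klotho replicate 3, which lay among the controls, the astrocyte groups of Cxcl5 did not overlap, and the neuron groups overlapped. Its culture difference was 6.07 ± 0.46 (SE, limma adjusted p = 8.21e-09).

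Of the ligands of Cxcr3, Cxcl10 had signal well above background on all 16 arrays and Cxcl9 on 6 of 8 astrocyte arrays and 1 of 8 neuron arrays. Cxcl10 read 8.28, 8.51, 4.97 and 7.90 on astrocyte Klotho arrays, against 5.33, 5.43, 3.38 and 2.18 in astrocyte controls. In neurons Cxcl10 read -2.87, -1.77, -1.58 and -1.67 with Klotho, against -2.08, -1.95, -1.42 and -1.85 without. All astrocyte Klotho values of Cxcl10 but that of replicate 3 lay above all controls, the neuron groups overlapped, and the culture difference was 7.65 ± 0.54 (SE, limma adjusted p = 2.86e-09).

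Cxcl9 read 1.35, 2.10, -4.03 and 1.59 on astrocyte Klotho arrays, against -5.03, -4.92, -7.10 and -7.04 in astrocyte controls, the last 2 not above background. The 4 Klotho values of this standing probe lay above the 4 controls, with replicate 3 nearest to them, while the groups of the further probe overlapped. On neuron arrays 7 of 8 values of Cxcl9 were not above background, and Klotho replicate 2, at -4.03, was. Cxcl9 was called higher in astrocyte cultures, by 4.44 ± 0.82 against neuron values mostly under the detection limit (SE, limma adjusted p = 1.76e-04) and by 2.57 ± 0.68 with values raised to that limit (SE, limma adjusted p = 0.00393). Like Cxcl2, Cxcl9 entered these tests only through the astrocyte Klotho group, which favours a higher value in astrocytes. Its further probe, above background on no neuron array, put astrocyte cultures at least 5.31-fold higher, at least 20.1-fold on Klotho arrays alone and at least 1.41-fold on control arrays alone. Without astrocyte Klotho replicate 2 that bound was 3.50-fold.

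The 2 members known as constitutive or developmental ligands lay lower in astrocyte cultures, with a reservation for Cxcl12. Cxcl14 read 2.99, 2.38, 2.44 and 1.88 on astrocyte Klotho arrays and 3.24, 3.05, 1.96 and 1.48 on astrocyte controls, so that these groups overlapped throughout. Neuron values of Cxcl14 were 3.33, 3.59, 3.59 and 3.56 with Klotho and 3.76, 3.70, 3.65 and 3.53 without, all above the highest astrocyte value, and the culture difference was -1.16 ± 0.23 (SE, limma adjusted p = 3.63e-04).

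The standing probe of Cxcl12 read -2.35, -0.47, -5.43 and -0.40 on astrocyte Klotho arrays, against -2.77, -2.84, -6.42 and -6.08 in astrocyte controls, the last 2 not above background. In neurons it read -0.87, -1.38, -1.08 and -1.22 with Klotho and -0.50, -1.0, -0.89 and -0.98 in controls. The other probe of Cxcl12, which targets another RefSeq transcript, read -0.67, 2.25, -2.76 and 2.28 on astrocyte Klotho arrays, -2.35, -2.43, -3.34 and -3.57 on astrocyte controls and -4.16 to -3.55 on the 8 neuron arrays. The probes thus disagree about the culture difference, at -2.36 ± 0.69 (adjusted p = 0.00673) for the standing probe and 2.48 (adjusted p = 0.00118, each probe tested by itself) for the other, both by limma, and Cxcl12 as a gene has no settled direction between cultures.

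The transmembrane chemokines went opposite ways between cultures. Cxcl16 read 1.61, 3.0, 0.66 and 2.59 on astrocyte Klotho arrays, against 1.49, 1.63, 0.43 and 1.06 in astrocyte controls, with overlap. Its neuron values ran from -5.90 to -5.06 with Klotho, 1 of 4 above background, and from -5.63 to -5.15 in controls, 4 of 4 above it, and the culture difference was 6.98 ± 0.29 (SE, limma adjusted p = 5.08e-12).

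Cx3cl1 read 4.36, 5.71, 3.72 and 4.82 on astrocyte Klotho arrays, against 3.88, 3.98, 3.38 and 2.49 in astrocyte controls. Neuron values of Cx3cl1 were 5.93, 5.27, 5.29 and 5.12 with Klotho and 5.93, 5.01, 5.27 and 5.21 in controls. Only astrocyte Klotho replicate 2 reached into the neuron range, and the culture difference was -1.34 ± 0.28 (SE, limma adjusted p = 5.42e-04). On Klotho arrays alone, where 63.8% of genes were called, 7 of the 9 members were called, with Cxcl12 at -1.03 (limma adjusted p = 0.364) and Cx3cl1 at -0.75 (limma adjusted p = 0.118) the exceptions. Cxcl1, Cxcl2, Cxcl5, Cxcl9 and Cxcl16 entered that test only through the astrocyte arrays, which favours a higher value there.

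**Figure D2:**
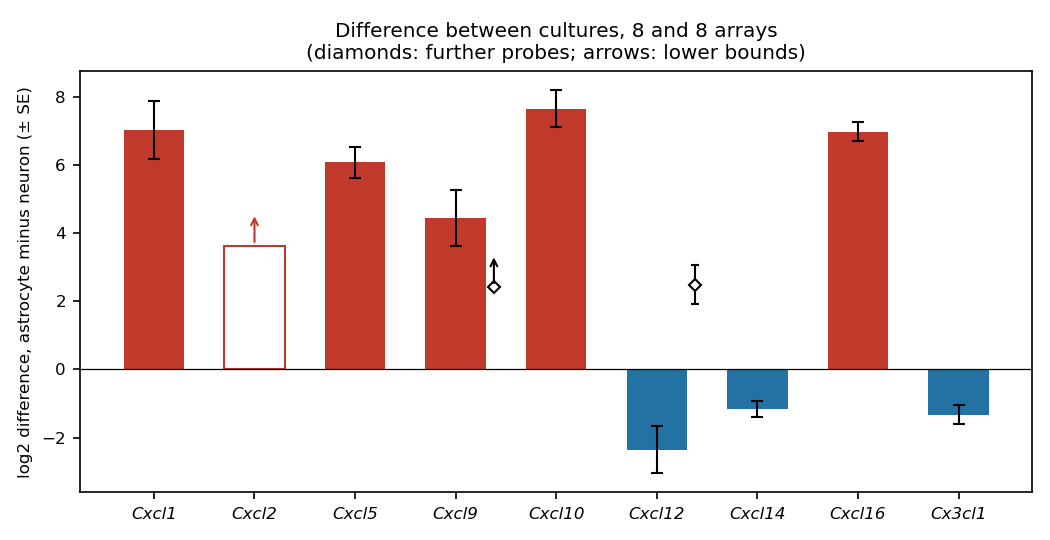
Difference between cultures for each chemokine, astrocyte minus neuron in log2 on the vertical axis, from 8 arrays per culture. Filled bars are limma estimates with their SE, red where astrocyte cultures were higher and blue where they were lower. The open bar of Cxcl2 and the diamond of Cxcl9 with an arrow are lower bounds against the neuron detection limit (3.61 and 2.41), and the other diamond is the further probe of Cxcl12, at 2.48 against -2.36 for the standing probe.

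The cultures were checked against marker genes. In astrocyte cultures 7 of 8 astrocyte markers were higher than in neuron cultures and 7 of 8 neuron markers lower (limma), where 29.1% of all genes were higher and 41.1% lower. The neuron markers Nefl and Slc17a7, above background on no astrocyte array, entered only through neuron groups, which favours a lower value in astrocytes. Microglia markers were also higher there, 7 of 8, with a median difference of 5.58 and all 8 well above background on every astrocyte array. P2ry12 and Tmem119 were above background on only 1 and 3 of the 8 neuron arrays. These genes entered the test only through astrocyte groups, which favours a higher value there. The median thus rests partly on neuron values not above background. The summed level of the 8 microglia genes ran from 6.57 to 7.19 on astrocyte Klotho arrays, 6.81 to 7.74 on astrocyte controls, 5.26 to 5.40 on neuron Klotho arrays and 5.04 to 5.25 on neuron controls. Csf1r, the receptor that microglia need to survive, read 4.49 to 5.63 on astrocyte Klotho arrays and 5.38 to 5.76 on astrocyte controls. Astrocytes and microglia both can make several of these chemokines, and in these bulk samples more cells of a type and more RNA per cell cannot be told apart. Summed oligodendrocyte-lineage markers were at 5.12 to 6.30 on astrocyte Klotho arrays and 4.53 to 6.92 on astrocyte controls, with 7 of 8 lower than in neurons, and of 6 endothelial markers 3 were tested and 2 were higher. Of 6 meningeal fibroblast markers 5 were tested, 3 higher and 2 lower (limma). Among them Lum, above background on 3 of 8 astrocyte arrays, entered only through neuron groups. The summed level of the fibroblast markers ran from 3.46 to 4.78 on astrocyte Klotho arrays and 3.09 to 3.35 on astrocyte controls. On neuron arrays it ran from 3.29 to 3.74 with Klotho and 3.49 to 3.78 in controls. The part of other cell types in the chemokine differences was not tested.

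Genes of the pathways known to induce these chemokines differed between the cultures too. Of the 12 NF-kappaB subunits and regulators 11 were tested and all 11 were higher in astrocyte cultures (median 3.25). The 11 include inhibitors of NF-kappaB, among them Nfkbia and Tnfaip3. Over all genes the median was -0.21 and 29.1% were called higher. All 6 tested cytokines and Toll-like receptors were also higher, with a median of 6.23 that rests partly on neuron values under the detection limit. Tnf, Il1b, Il6 and Ifnb1, which encode inducing cytokines, were not above background on any neuron array, and Tlr4 was on 1. Tnf, Il1b, Il6 and Tlr4 thus entered the test only through astrocyte groups, which favours a higher value there. Of the chemokine receptors and scavengers 7 were tested, with 5 higher and 2 lower, where 29.1% and 41.1% of genes were. Cx3cr1, the receptor of Cx3cl1, was higher by 7.24 ± 0.55 (SE, limma) and was above background on 7 of 8 neuron arrays. Cxcr3 was above background on all 8 astrocyte arrays and 0 of 8 neuron arrays, so no size is given for its difference. It entered the test only through astrocyte groups, which favours a higher value there. Ackr4, above background on 0 of 8 astrocyte arrays, entered only through neurons, which favours a lower value in astrocytes. Cxcr2, the receptor of Cxcl1, Cxcl2 and Cxcl5, was not above background on any of the 16 arrays. Adam10 and Adam17, proteases that shed Cxcl16 and Cx3cl1, were higher by 0.84 ± 0.14 and 1.55 ± 0.16 (SE, limma).

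The series design sets Klotho against vehicle in astrocytes, and 8 of the 9 chemokines had a higher mean in the astrocyte Klotho group by scanner file, without any passing the test. Cxcl1 was 6.89 ± 1.48 higher on the log2 scale, Cxcl9 6.27 ± 1.29, Cxcl2 6.23 ± 1.65, Cxcl10 3.34 ± 0.96, Cxcl5 2.67 ± 0.83, Cxcl12 2.36 ± 1.28, Cx3cl1 1.22 ± 0.48 and Cxcl16 0.81 ± 0.51, while Cxcl14 differed by -0.01 ± 0.43 (SE, n = 4 per group). The limma adjusted p was 0.9999 for all 9. No gene of 23562 tested was called (0%), 0 by limma at the adjusted threshold against 889 (3.77%) at an unadjusted p below 0.05, and of the 6 members well above background on all 8 arrays 4 had such a p. The median difference of these 6 was 1.95, against -0.01 over all genes, and 5 of them had a positive difference. Cxcl2, Cxcl9 and Cxcl12 were above background on all 4 Klotho arrays, against 3, 2 and 2 of the 4 controls. They entered the test only through the Klotho group, and their differences rest partly on control values under the detection limit. With values under the highest detection limit of the 8 arrays raised to it, the differences were 5.54 ± 1.52 for Cxcl2, 5.38 ± 1.20 for Cxcl9 and 1.92 ± 1.13 for Cxcl12 (SE, limma adjusted p = 0.9998 each).

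By their standing probes, Cxcl1 and Cxcl9 were the members for which every Klotho array lay above every control array, as 1.1% of genes did, while 1.44% lay entirely below. Cxcl9 was above background on only 2 of the 4 controls. For both the exact two-sided permutation test of the means gave p = 0.0286, the smallest that 4 arrays against 4 can give. These tests take no account of pairing. Read by replicate number, Cxcl1, Cxcl5, Cxcl10, Cxcl16 and Cx3cl1 were higher on the Klotho array in all 4 pairs of same-numbered arrays. So were 8.86% of genes, while 10.4% were lower in all 4. Cxcl14 was higher in 2 pairs. Cxcl2, Cxcl9 and Cxcl12 were higher in all 4, but they passed the filter only through the Klotho group, which favours that direction. An exact test over 4 pairs cannot give a p below 0.125. Among the 9 unpaired exact tests, one per member, the permutation p was 0.0571 for Cxcl2 and for Cxcl5, and 0.0857 for Cxcl10 and for Cx3cl1. The further probes, not among these tests, gave 4.81 for Cxcl9 and 3.20 for Cxcl12. With the further probe of Cxcl9 the groups overlapped (exact permutation p = 0.0571), so its full separation holds for the standing probe only. Without Klotho replicate 3, Cxcl1 differed by 8.45 (limma adjusted p = 0.0292) and Cxcl9 by 7.70 (limma adjusted p = 0.0114), and these 2 members were then called, where 0.0632% of genes were. With values also raised to the detection limit, Cxcl1 differed by 8.45, Cxcl9 by 6.81 and Cxcl2 by 7.17, and these 3 were called, where 0.0506% of genes were (limma). Klotho replicate 3 was singled out by its low values of these same members, so the calls without it are no support for a Klotho difference. The value table counts that array as control.

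Under the assignment of the value table the same arrays gave smaller differences. The Klotho group of Cxcl1 then held -0.96, -2.87, 7.13 and 7.03, against -0.90, -3.74, 4.82 and 0.10 in the control group, so 2 of the 4 Klotho values and 1 of the 4 control values were above 4. The difference of Cxcl1 was 2.51 ± 2.62, of Cxcl2 3.05 ± 2.47, of Cxcl5 1.04 ± 1.17, of Cxcl10 0.52 ± 1.46, of Cx3cl1 0.42 ± 0.61 and of Cxcl14 -0.46 ± 0.40 (SE, n = 4 per group). For Cxcl16 it was 1.02 ± 0.47, larger than by scanner file. The adjusted p was 1 for all 7 members tested (limma), and Cxcl9 and Cxcl12 were not above background on all arrays of either group and were not tested, their means differing by 1.63 and 1.79. Of 23608 genes 0 were called (0%) by limma, and 584 reached an unadjusted p below 0.05, none of them a member. No member separated the groups, where 0.559% of genes did with Klotho higher and 1.1% with Klotho lower, and the median of the 6 members above background on all 8 arrays was 0.77, against -0.05 over all genes.

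Both sources give Klotho to replicates 2 and 4 of slide 3 and control to replicates 1 and 3 of slide 2. On these 4 arrays Cxcl1 read 7.13 and 7.03 with Klotho, against -0.90 and -3.74 in control, a difference of 9.40 ± 0.97. Cxcl2 differed by 9.29 ± 1.27, Cxcl9 by 7.91 ± 0.76, Cxcl12 by 4.16 ± 1.20, Cxcl10 by 3.86 ± 0.74, Cxcl5 by 3.71 ± 0.38, Cxcl16 by 1.83 ± 0.52, Cx3cl1 by 1.64 ± 0.49 and Cxcl14 by -0.47 ± 0.57 (SE, n = 2 per group), with Cxcl2, Cxcl9 and Cxcl12 not above background on 1 of the 2 controls. The limma adjusted p was 0.0683 for Cxcl9, 0.0757 for Cxcl1 and Cxcl5, 0.146 for Cxcl2 and 0.306 or more for the others, so 0 of the 9 were called, where 22 of 24880 genes were (0.0884%), all higher. These 4 arrays differ in slide and in slide column as well as in treatment, which cannot be told apart on them.

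**Figure D3:**
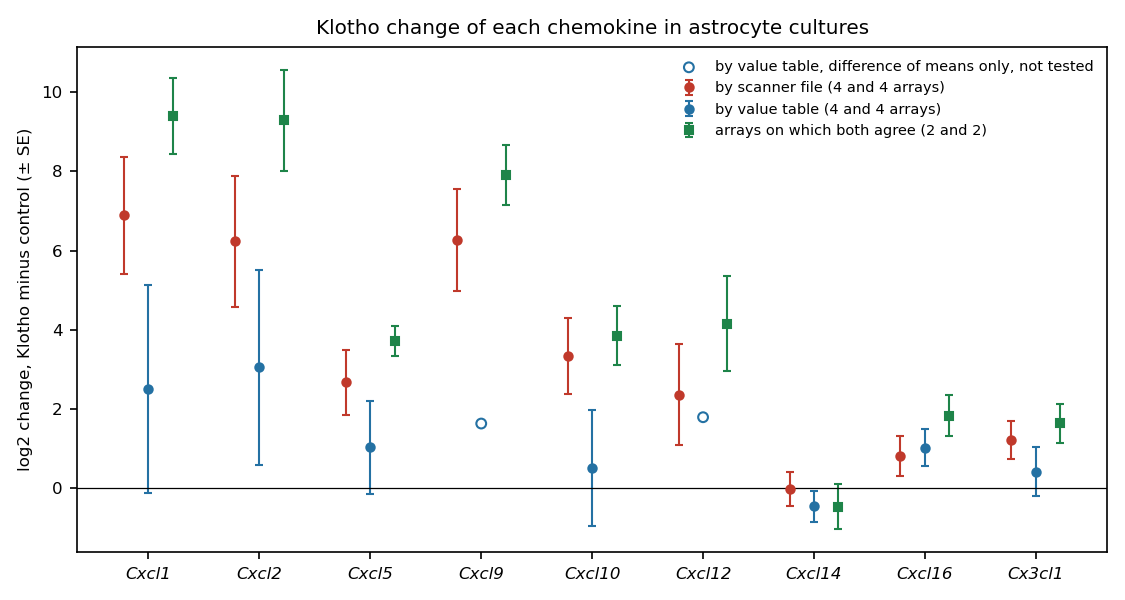
Klotho difference of each chemokine in astrocyte cultures, Klotho minus control in log2 on the vertical axis, with SE bars. Red points take the groups from the scanner files and blue points from the value table (4 and 4 arrays each), and green squares use the arrays on which these agree (2 and 2); open blue circles are plain differences of means. Cxcl1 stands at 6.89, 2.51 and 9.40, and Cxcl14 lies at -0.01, -0.46 and -0.47.

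Position on the slide moved with the same genes. Slide 3 minus slide 2, which is the scanner-file contrast, was 6.89 for Cxcl1, while column 4 minus column 3, the value-table contrast, was 2.51 and row 2 minus row 1 was -2.39. Within row 1 the Klotho minus control difference of Cxcl1 by scanner file was 6.90 and within row 2 it was 6.88. Within column 3 it was 4.78 and within column 4 it was 9.0. Cxcl9 gave 6.70 and 5.85 within the rows and 4.73 and 7.82 within the columns. By value table the difference of Cxcl1 was 0.40 within slide 2 and 4.62 within slide 3, and that of Cxcl10 was -0.54 within slide 2 and 1.58 within slide 3. On slide 3 alone the value table's Klotho arrays lay above its control arrays for Cxcl1, overlapped them for Cxcl10 and lay below them for Cxcl14. On slide 2 alone the groups of these genes overlapped (n = 2 per group). The share of all genes that separate with so few arrays was not computed. The part of slide, row and column in these differences was not tested.

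**Figure D4:**
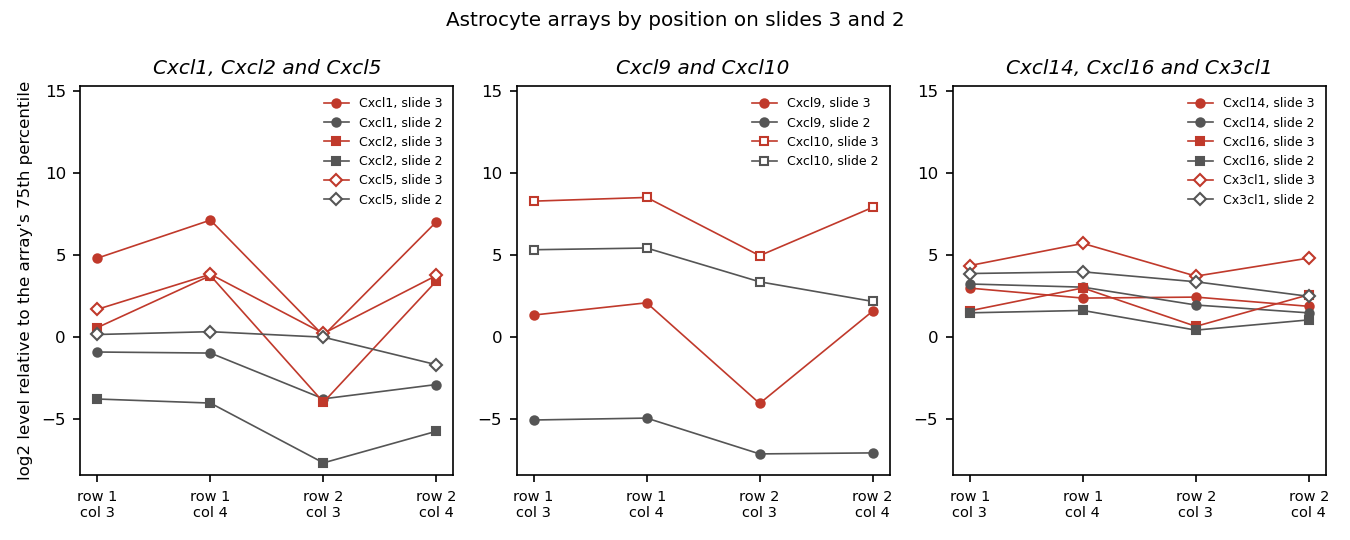
Levels of 8 chemokines on the astrocyte arrays by their place on the slide, in log2 relative to the array's 75th percentile. Red is slide 3, which is Klotho by scanner file, grey is slide 2, which is control by scanner file, and lines join the arrays of a slide in order of position only. Row 2, column 3 of slide 3 (0.10 for Cxcl1) lies below the other 3 arrays of its slide for every gene shown except Cxcl14.

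Over the 8 astrocyte arrays together, which needs no assignment, the 6 members above background on all 8 differed widely in their spread. Cxcl1 had the largest SD of 21996 genes well above background on all 8, at 4.37, against a median of 0.462. Cxcl10 ranked 54 with 2.33 and Cxcl5 ranked 107 with 1.93. The transmembrane pair varied less, Cx3cl1 with an SD of 0.963 (rank 1749) and Cxcl16 with 0.884 (rank 2304), and Cxcl14 least, with 0.629 (rank 6147, with 27.9% of genes varying more). Cxcl2, Cxcl9 and the standing probe of Cxcl12 were not above background on all 8 arrays and were not ranked. The other probe of Cxcl12 was above background on all 8, with an SD of 2.38, and was not ranked either. The full range over 8 arrays was 11.39 for Cxcl2, 10.87 for Cxcl1, 9.19 for Cxcl9, 6.33 for Cxcl10 and 1.76 for Cxcl14. Within slide 3 Cxcl1 ranged over 7.03 and within slide 2 over 2.85.

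The members varied together, except Cxcl14. Pearson's r was taken over the 8 astrocyte arrays, which share slides and positions. Among Cxcl1, Cxcl5, Cxcl10, Cxcl16 and Cx3cl1 it ran from 0.798 (Cxcl10 with Cxcl16) to 0.951 (Cxcl5 with Cx3cl1). Cxcl1 gave 0.992 with Cxcl2 and 0.991 with Cxcl9. Correlations of Cxcl2, Cxcl9 and Cxcl12 include values not above background. Cxcl14 correlated with the other members at 0.394 at most. Outside the family the transcript most like Cxcl1 was Ccl5, a chemokine of the CC family (r = 0.992), followed by Diras2 (0.99) and the interferon-induced antiviral gene Rsad2 (0.986), among 14692 named genes. Cxcl10 was followed by Pcolce2 (0.989), the double-stranded RNA sensor Tlr3 (0.982) and Nop9 (0.978), and Cxcl5 by Lgi2 (0.994), Tnfsf18 (0.986) and Madcam1 (0.986). Cxcl16 lay nearest to Rnf19b (0.995), the NF-kappaB cofactor Bcl3 (0.994) and Trim47 (0.994), Cx3cl1 to Orai2 (0.991), the interferon-induced GTPase Igtp (0.99) and Tapbpl (0.987), and Cxcl14 to Hacd4 (0.993), Ramp1 (0.993) and Adipor1 (0.991). These are descriptions of 8 arrays.

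The genes of the inducing pathways also had higher means with Klotho in the astrocyte arrays by scanner file, with none called of any list. Of the 11 tested NF-kappaB genes 10 had a positive difference (median 1.14), and of the cytokines and Toll-like receptors 6 of 6 (median 3.32). Il1b and Il6 among them were above background on only 7 of the 8 astrocyte arrays. Tnf, an inducer of Cxcl1 and Cxcl2, read 2.04, 4.62, -1.95 and 3.43 with Klotho, against -1.53, -1.16, -2.75 and -2.02 in controls. Tnfaip3, a feedback inhibitor of NF-kappaB, read 3.71, 6.23, 0.41 and 5.42 with Klotho, against 0.80, 0.88, -0.30 and -0.10 in controls. Rsad2 read 4.71, 6.84, 1.83 and 6.51 with Klotho, against 1.68, 1.88, 0.86 and 0.25 in controls. In all 3 genes replicate 3 was the lowest Klotho array. The differences were 3.90 ± 1.22 for Tnf, 3.62 ± 1.10 for Tnfaip3, 3.80 ± 1.01 for Rsad2, 2.24 ± 0.77 for the interferon response factor Irf1 and 2.00 ± 0.79 for the NF-kappaB inhibitor Nfkbia (SE, limma adjusted p = 0.9999 each). With the value table's groups, 10 of 11 NF-kappaB genes (median 1.00) and 5 of 6 cytokines and Toll-like receptors (median 1.98) were positive, again with none called.

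The receptors and further ligands did not share that direction. Of 6 tested receptors and scavengers 3 were positive and 3 negative by scanner file (median 0.09). Cxcr3, the receptor of Cxcl9 and Cxcl10, read -3.62, -3.88, -2.85 and -2.76 with Klotho, against -1.50, -1.32, -3.05 and -2.74 in astrocyte controls, with overlap. Cx3cr1 differed by -0.42 ± 0.27 and Ackr3, a scavenger of Cxcl12, by 0.29 ± 0.38 (SE). Pf4, the platelet chemokine and the only one tested of 6 other CXC ligands, differed by -0.91 ± 0.46, Adam17 by 0.84 ± 0.29 and Adam10 by 0.31 ± 0.25 (SE, limma adjusted p = 0.9999 each). Among the microglia markers 7 of 8 had a negative Klotho difference in astrocytes by scanner file (median -0.37), and the summed meningeal fibroblast markers ran from 3.46 to 4.78 with Klotho, against 3.09 to 3.35 in controls. Their part in the chemokine values was not tested.

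In neurons the chemokines differed little between Klotho and control. Of the 7 members tested 0 were called, where 0.15% of 24703 genes were, all 37 of them lower (0.15%) and none higher (0%), and by limma no member had an unadjusted p below 0.05. Pairing the neuron arrays by replicate number lowered that count to 24 genes, again without a member. Of the 4 members well above background on all 8 neuron arrays 1 had a positive difference, with a median of -0.15, against -0.03 over all genes. The best measured members gave 0.05 ± 0.24 for Cx3cl1, -0.15 ± 0.11 for Cxcl14, -0.30 ± 0.16 for Cxcl12 and -0.15 ± 0.29 for Cxcl10 (SE, n = 4 per group, limma adjusted p from 0.988 to 0.996). No member separated the groups, where 1.38% of genes did with Klotho higher and 2.83% with Klotho lower. By replicate number Cxcl1, Cxcl5 and Cxcl12 were lower with Klotho in all 4 pairs of neuron arrays, as 17.7% of genes were, and no member was higher in all 4, as 8.49% were.

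The dimmest members lay near the detection limit, which differed between the neuron groups. Cxcl1 differed by -1.05 ± 0.50 and Cxcl5 by -0.47 ± 0.24 (limma adjusted p = 0.988 each), and Cxcl16 by 0.09 ± 0.20. Cxcl1 was above background on 0 of 4 neuron Klotho arrays and 4 of 4 controls, so no fold is given: against the Klotho arrays' detection limit the controls stood 0.11 higher on the log2 scale with all arrays, and 0.29 lower without control replicate 1. The lowest level well above background was -5.74 to -5.09 on neuron Klotho arrays and -6.53 to -6.06 on neuron controls, and 57.9 to 62.0% of spots against 65.0 to 67.3% were well above background. Cxcl2 and Cxcl9 were not tested in neurons. Leaving out the arrays in turn gave Cxcl10 a sign of either kind, from -0.28 to 0.15. The receptors and scavengers, with 2 of 6 tested positive (median -0.19), and the NF-kappaB genes, with 4 of 11 positive (median -0.05), were not called either.

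Whether Klotho acted differently on the 2 cultures was tested by the interaction over all 16 arrays. The astrocyte minus neuron difference of the Klotho effects called 0 of the 9 members, where 0.0881% of 26109 genes were, 0.0804% positive and 0.00766% negative. Cxcl2 and Cxcl9, above background on 0 and 1 of the 8 neuron arrays, had no measured Klotho effect in neurons, and no interaction is given for them. Cxcl10, Cxcl14 and Cx3cl1, above background on all 16 arrays, gave 3.48 ± 1.07, 0.14 ± 0.47 and 1.17 ± 0.56 (SE, limma adjusted p = 0.720, 0.998 and 0.956). The neuron part of the others lay near the detection limit for Cxcl1, at 7.94 ± 1.68 (limma adjusted p = 0.149), Cxcl5, at 3.14 ± 0.93 (0.672), and Cxcl16, at 0.72 ± 0.58. Cxcl12, above background on 6 of 8 astrocyte arrays, gave 2.66 ± 1.39 (SE). Without astrocyte Klotho replicate 3 Cxcl1, Cxcl5 and Cxcl10 passed the test (limma adjusted p = 0.000418, 0.0251 and 0.0350), where 0.642% of genes did. That array was singled out by its low values of these same members, which favours such calls. With values also raised to the detection limit the limma adjusted p was 0.000835 for Cxcl1, 0.0477 for Cxcl5 and 0.0522 for Cxcl10. The interaction takes the astrocyte groups by scanner file, and with the value table's groups 0 members passed it.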

How the data were processed

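RNA of 16 culture samples was measured on one-colour Agilent arrays labelled with Cy3, 4 per group, with groups taken from the labels. The scanner files came, per the file headers, from Agilent Feature Extraction 12.0.3.1 (protocol GE1_1200_Jun14, array design 028005, probes placed on NCBI37), and their processed signal is a linear intensity, background-subtracted and not normalized between arrays. The authors also deposited a table of values with no unit, which hold a score: a column is the log2 intensity of 1 scanner array scaled to mean 0 and SD 1, matched to within 0.005 (next best at least 1.67 away). Of its columns 10 match their own sample. Unused columns of per-sample values numbered 0.

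Outlier spots were dropped, spots of a probe averaged, and log2 intensity centred on each array's 75th percentile. Well above background means that at least 0.5 of a probe's spots carried that flag. Of 55681 probes 28331 (50.9%) were named through RefSeq accessions of the GRCm38.p6 gene table; unnamed probes stayed in the tests. The brightest probe stood for a gene, and genes well above background on all 4 arrays of a compared group were tested with limma 3.58.1 in R 4.3.3, adjusted by Benjamini and Hochberg over all of them. The code was tested on simulated data; Python 3.11.15 did the rest. The number of arrays limits the precision.

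Every member with a probe was reported in every comparison, apart from Cxcl2 and Cxcl9 in the neuron Klotho difference and in the interaction. Other genes were named by smallest p within fixed lists, or as the 3 most correlated genes. The lists gave at most 3 genes each, above background on all 8 arrays of a culture. Il1b, Il6, Ifnb1, Tlr4, Cxcr2 and Csf1r were exceptions, chosen after their values were seen. One list of related genes is not reported here. Members and lists were chosen with earlier results of these data known. Alternatives were median and quantile scaling, normexp (offset 50, on median foreground and background signals, as mean signals were not used here), other filters, the value table, single probes, blocks, leaving out arrays and, added after the data were seen, raising values to the highest detection limit of the compared arrays. Same-numbered arrays deviated together in neurons (r = 0.22 to 0.81) and in astrocytes by scanner file (r = 0.19 to 0.75), so the numbers were taken to pair them there, although neuron Klotho replicates 2 and 4 correlated better with a control of another number (0.54 and 0.56, against 0.22 and 0.47); they coincide with slide position. By value table the correlations ran from -0.77 to 0.68.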

Additional observations from a re-analysis of the deposited data

Results flagged for a closer look

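Of 36 groups of 4 arrays, 6 held a value whose gap to its nearest neighbour exceeded, as a share of the group's range, the critical value of Dixon's test; chance gives about 1 in 20 groups such a value. In astrocyte Klotho arrays Cxcl9 read -4.03 on replicate 3, with the nearest other value at 1.35. In astrocyte controls Cxcl5 read -1.67 on replicate 4, with the nearest at 0.01. In neuron Klotho arrays Cxcl10 read -2.87 on replicate 1 (nearest -1.77), Cxcl14 read 3.33 on replicate 1 (nearest 3.56) and Cxcl9 read -4.03 on replicate 2 (nearest -7.31), the only neuron array on which Cxcl9 was well above background. In neuron controls Cxcl9 read -6.61 on replicate 1 (nearest -8.37), with all 4 values not well above background.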

How the results depend on the processing

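In the astrocyte minus neuron comparison all 9 members kept their direction under every alternative run for them, the other probe of Cxcl12 aside, and stayed called, apart from Cxcl12 and Cx3cl1 on Klotho arrays alone; requiring signal on all 16 arrays left 3 members, all 3 called. In neurons 0 members were called under any alternative, while the genes called numbered 37, against 9 with normexp, 4 with signal on all arrays, 62 with the value table, 7 with values raised to the detection limit, 24 with the replicate block, 4020 with no filter on dim genes (3854 of them higher) and 18 to 56 with one array left out (control replicate 2, 56; control 3, 20; control 4, 18; Klotho 1, 20). Neuron signs turned for Cx3cl1 with normexp (-0.0033) and, in the SD units of the value table, Cxcl14 (0.015) and Cxcl16 (-0.062); leaving out one array gave -0.13 to 0.24 for Cx3cl1, -0.28 to 0.15 for Cxcl10 and -0.013 to 0.26 for Cxcl16. In astrocytes by scanner file the genes called numbered 0, 2 in a fit of all 16 arrays, 22 on the arrays of agreed treatment and 0 to 15 with one array left out (Klotho replicate 3, 15, or 12 with values raised too; control 3, 1), the members 0 to 2 (2 without Klotho replicate 3, or 3 with values raised too), and Cxcl14 ran from -0.33 to 0.26. By value table leaving out one array gave -0.32 to 1.79 for Cxcl10 and -0.071 to 1.00 for Cx3cl1, with 0 calls throughout. In the interaction the genes called numbered 23, against 9 with normexp, 0 with signal on all arrays, 39 with the value table, 15 with values raised to the detection limit, 25 with the replicate block and 17 to 168 with one array left out (astrocyte Klotho replicate 3, 168; neuron control 2, 38), the members 0 to 5 (5 without astrocyte Klotho replicate 3, among them Cxcl2 and Cxcl9, which had almost no neuron signal; with values raised too, 137 genes and 4 members); Cxcl14 turned to -0.14 with the value table's values and -0.31 with its assignment, Cx3cl1 to -0.0050 with its values, and Cxcl14 ran from -0.18 to 0.41 with one array left out. The replicate block changed no call of a member; with it, Cxcl1 in astrocytes by scanner file stayed at 6.89 (limma adjusted p = 0.484). The cause of these shifts was not tested. Members below background on some arrays (Cxcl2, Cxcl9 and Cxcl12 in astrocyte controls, Cxcl1, Cxcl2, Cxcl5, Cxcl9 and Cxcl16 in neurons) are limited by signal over background.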
